A study of Mus musculus with 9 samples.

Results

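The hippocampal marker genes are 9 genes used to recognise fields of the mouse hippocampus, found in the deposited table by their Entrez identifiers and summed over transcripts. All 9 have rows among the 18450 genes of the table, and 8 had enough counts to be tested. Spink8 did not pass the filter on low counts. Transcripts were sequenced from the brains of 9 APP/PS1 mice, a model in which human transgenes cause amyloid plaques, in 3 housing groups of 3. One group was exposed to stress, one was kept in a standard environment (control) and one in an enriched environment, and all 9 animals share the APP/PS1 genotype. The treatment field of the labels names standard rearing for all 9, and only the group field and the titles separate the groups. The sources used here give neither the promoter of the transgenes nor the age of the animals. The design text of the series says that the posterior parts of both hemispheres went to staining and protein extraction, while the brain stem and the front of the brain gave the RNA. The hippocampus of the mouse lies largely in the posterior part of the forebrain, so the design text alone leaves unknown how much of it each library holds.

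The hippocampus passes signals through a chain of excitatory neurons. Granule cells of the dentate gyrus send mossy fibres to CA3 pyramidal cells, which project to CA1, the main output field, and the circuit is known for its part in memory and its early damage in Alzheimer's disease. Prox1, C1ql2, Dsp and Lct mark granule cells, Wfs1, Fibcd1, Spink8 and Pou3f1 mark CA1, and Hs3st4 marks deep cortical layers and parts of the hippocampal formation. Several are made elsewhere too. Prox1 is also found in interneurons of caudal ganglionic origin, in thalamus and in lymphatic endothelium, Wfs1 in upper cortical layers, amygdala and ventral striatum, and Pou3f1 in cortical projection neurons. In a bulk sample, fewer cells of a type and less RNA per cell cannot be told apart.

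Libraries held 15851833 to 17213008 estimated counts, and 1 CPM (a count scaled by library size with TMM factors) stood for 15.95 to 16.82 reads. The tissue in a library varied between animals of a group. Brain stem markers (7 genes) had a summed TPM of 8.72 to 52.6 in control, 6.58 to 73.7 in stress and 8.01 to 24.97 in enriched mice. Choroid plexus markers (5 genes) summed to 8371 to 11635 TPM in control and 1137 to 4983 TPM in stress mice. In enriched replicates 1 to 3 they summed to 84.5, 7085 and 43.2 TPM, so every control lay above every other library. Over all 14694 genes tested, none passed an adjusted p of 0.05 between housing groups in any comparison (edgeR's quasi-likelihood test, Benjamini-Hochberg adjusted; 0% each). An unadjusted p under 0.05 by edgeR was reached by 1172 genes for stress against control, 2994 for enriched against control and 388 for stress against enriched. DESeq2 called 7, 5 and 0 genes and limma-voom called 0 in each. Leaving out control replicate 3 or enriched replicate 2 gave 1586 or 33 genes by edgeR for enriched against control. None of the 8 marker genes tested in the main fit was among them, and Spink8 was not looked up in those fits.

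The 9 genes spanned a wide range of levels, and the granule cell markers Dsp and Lct and the CA1 marker Spink8 lay near the limit of detection. Per transcript length, as TPM (the authors' measure of transcript abundance, scaled by length) averaged over all 9 libraries, Wfs1 was highest at 67.9 ± 11.5 (SD, n = 9). Hs3st4 followed at 16.6 ± 2.12 TPM, Pou3f1 at 14.1 ± 0.958, Prox1 at 7.13 ± 1.53 and Fibcd1 at 4.84 ± 1.99 (SD, n = 9). Below them were C1ql2 at 3.0 ± 2.95 TPM, Spink8 at 1.88 ± 2.04, Lct at 0.294 ± 0.0849 and Dsp at 0.288 ± 0.128 (SD, n = 9). The steps from Wfs1 to Hs3st4 and from Pou3f1 to Prox1 were clear of the spread. In both, the lowest library of the higher gene lay above the highest library of the lower gene. The lowest Spink8 library (0.5 TPM, control replicate 2) also lay above the highest of Lct (0.43 TPM). It held only 2 reads, with a 95% Poisson interval of 0.242 to 7.22 reads, so this step was not clear of counting error. Hs3st4 exceeded Pou3f1 in 9 of 9 libraries although their ranges overlapped (13.8 to 19.7 against 12.95 to 15.75 TPM). The other neighbours did not differ beyond their spread, with Prox1 above Fibcd1 in 8 of 9 libraries, Fibcd1 above C1ql2 in 7, C1ql2 above Spink8 in 6 and Lct above Dsp in 5. Lct and Dsp exceeded 17.6% and 17.5% of the genes of the table in mean TPM, and Wfs1 exceeded 85.5%. No reference level from hippocampus was at hand, so these levels do not show how well the label fits the tissue. Of the 4 granule cell genes, 2 were at 0.51 TPM or less in every library, while Prox1 and C1ql2 averaged 7.13 and 3.0 TPM. The most abundant members, Wfs1, Hs3st4 and Pou3f1, are also made in cortex. By reads, however, the CA1 gene Spink8 was lowest, with 11 reads in all in control, 34 in stress and 19 in enriched. Dsp had 88, 52 and 51 reads in these groups, and Lct had 56, 52 and 37.

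**Figure D1:**
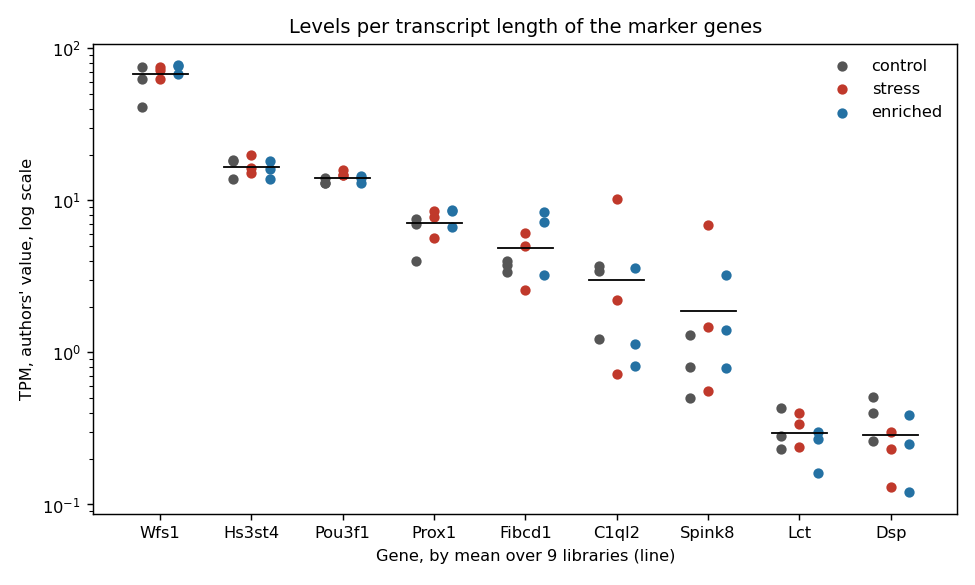
TPM (the authors' value, log axis) of the 9 marker genes in each of the 9 libraries, ordered by their mean (line), with points coloured by housing group. Wfs1 lies at 41.2 to 77.2 TPM, while Lct and Dsp stay at 0.12 to 0.51 TPM, and C1ql2 and Spink8 spread most.

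No marker gene passed the test between housing groups. In each of the 3 comparisons 0 of the 8 tested members passed, against 0% of all genes, and 0 of 8 were under an unadjusted p of 0.05, where the share of all genes was 7.98% for stress against control, 20.4% for enriched against control and 2.64% for stress against enriched. limma-voom and limma on log2 TPM also called none of the 8, nor did DESeq2, which for enriched against control gave an adjusted p for only 2 of them (Prox1 and Wfs1). For stress against control, 5 of the 8 log2 fold changes lay above 0 (52.3% of all genes did) with a median of 0.06, beside a median of 0.02 over all genes tested. For enriched against control, 3 of 8 lay above 0 (51.7% of all genes) with a median of -0.21, beside 0.02 over all genes. For stress against enriched, 5 of 8 lay above 0 (51.9% of all genes) with a median of 0.08, beside 0.01. The comparisons share groups, stress and enriched each being set against the same 3 controls, so they are not independent. In CPM, the 3 values of 2 groups did not overlap for 1 of the 8 tested genes in stress against control (Dsp; 9.84% of all genes), for 0 in enriched against control (26.1%) and for 1 in stress against enriched (Pou3f1; 10.5%).

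**Figure D2:**
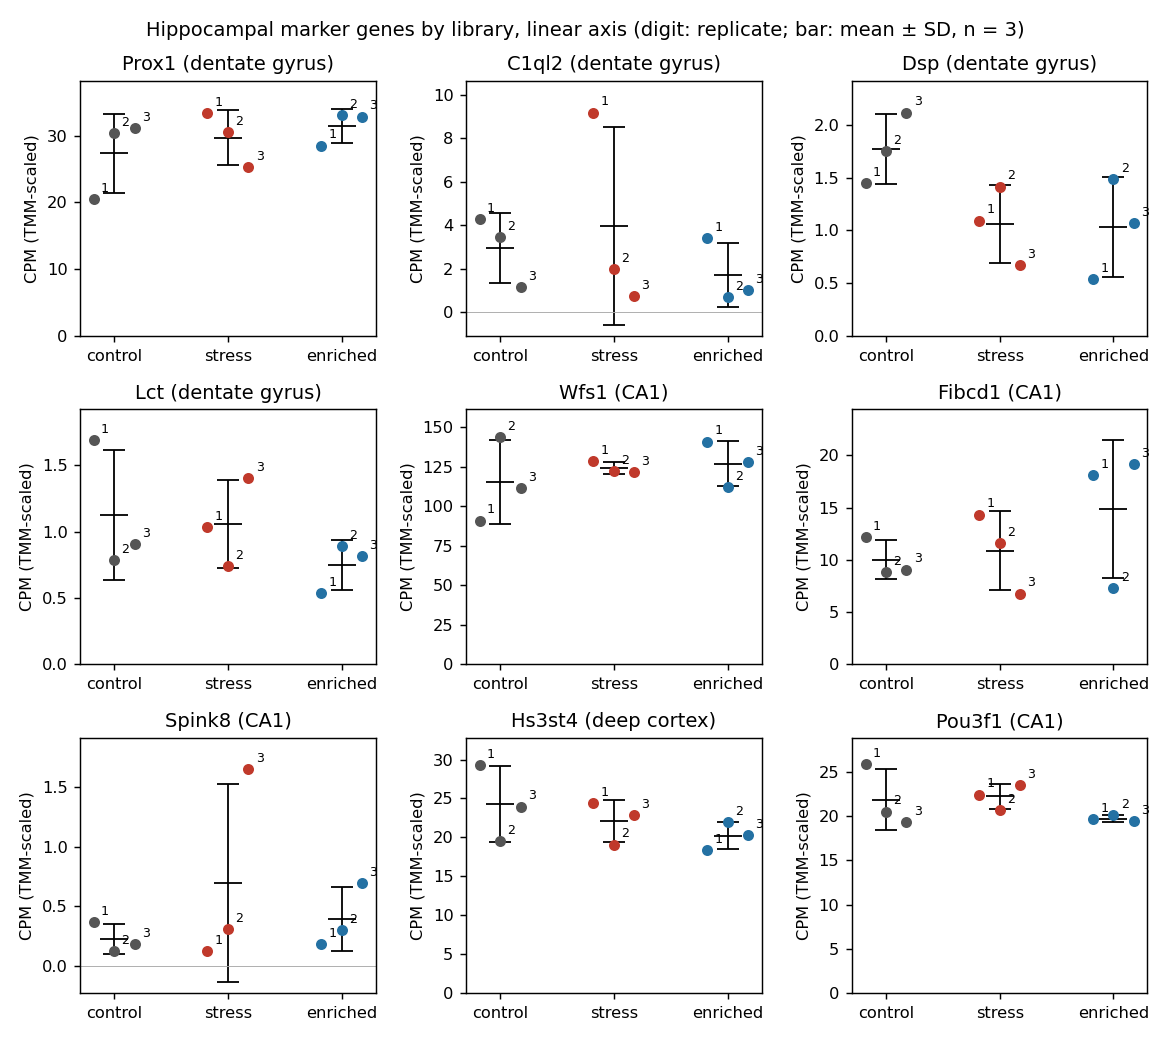
CPM (linear axes, each panel with its own scale) of the 9 marker genes by housing group, with 1 point per library numbered by replicate and the mean ± SD of 3. Single libraries stand high for C1ql2 (stress replicate 1, 9.17 CPM) and Spink8 (stress replicate 3, 1.65 CPM), and the groups overlap for every gene except Dsp between stress and control and Pou3f1 between stress and enriched.

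Among the granule cell genes, Prox1 encodes a homeodomain transcription factor that sets granule cell identity (gene 19130, chromosome 1, 190118035 to 190170827 on GRCm38.p6). It was at 20.5, 30.4 and 31.2 CPM in control replicates 1 to 3, at 33.4, 30.5 and 25.3 CPM in stress, and for the enriched animals at 28.5, 33.1 and 32.9 CPM. Control replicate 1 was the lowest library and the groups overlapped. Its log2 fold change was 0.12 ± 0.17 (SE, 95% interval -0.26 to 0.50, adjusted p = 0.753) for stress and 0.20 ± 0.17 (-0.18 to 0.59, adjusted p = 0.465) for enriched against control by edgeR. Without control replicate 1 the values were -0.05 and 0.02, and with the first letter of the animal codes as a covariate they were 0.54 and 0.03. Control replicate 1 is the only control with the letter of the stress animals. With this covariate, stress is therefore set against that library alone. The gene value sums 5 of 6 annotated coding transcripts, and the lncRNA gene Prox1os overlaps it, whose reads cannot be told apart without strand. The estimated split among its transcripts varied far more than their sum: transcript NM_008937.3 took 20.0% to 72.0% of the gene's count and NM_001360827.1 took 0% to 59.8%, so no isoform difference is given.

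C1ql2 encodes a secreted protein with a C1q domain that sits at mossy fibre synapses (gene 226359, chromosome 1, 120340582 to 120343174). Its spread within groups was the widest of the members on the log2 CPM scale, while Spink8 had the larger ratio of highest to lowest library (13.7 against 12.9). Its reads numbered 71, 57 and 19 in control replicates 1 to 3, 151, 32 and 12 in stress replicates 1 to 3, and 57, 12 and 16 in enriched replicates 1 to 3. In CPM this was 4.28, 3.44 and 1.15 in control, 9.17, 1.97 and 0.733 in stress, and 3.41, 0.713 and 1.003 in enriched. Stress held both the highest library and, in replicate 3, nearly the lowest. The 95% Poisson intervals of the reads, which cover counting error only, were 128 to 177 for stress replicate 1 and 6.20 to 21.0 for stress replicate 3, so the spread inside this group exceeded counting error. The log2 fold change was 0.42 ± 0.85 for stress and -0.79 ± 0.89 for enriched against control (SE; adjusted p = 0.831 and 0.588 by edgeR), and without stress replicate 1 the first value was -1.13. The second was -1.79 without enriched replicate 1 and -0.42 without enriched replicate 2. The interval for stress against control ran from -1.48 to 2.32, so a difference of several fold either way was not detectable with these animals.

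Within groups, the standard deviation of C1ql2 on the log2 CPM scale was 1.31, beside a median of 0.37 over 951 tested genes of similar level (mean log2 CPM within 0.5). Its level went with some lists of regional markers and against others over the libraries. Over the 9 libraries its log2 CPM had a Pearson r of -0.90 (Spearman -0.87) with the mean of 4 cerebellar granule cell genes and of 0.77 (Spearman 0.80) with the mean of 7 brain stem genes. It was also negative with 8 further granule cell genes (r = -0.63, Spearman -0.72), 5 further CA1 genes (-0.66, Spearman -0.80) and 4 genes of cortex layer 5 (-0.72, Spearman -0.83). With 5 genes of oligodendrocyte precursors and new oligodendrocytes it was 0.67 (Spearman 0.78). These are descriptions of 9 libraries that share depth and dissection, among 162 relations of a member to a list. Without the 2 libraries most extreme for the list, r was -0.76 for the cerebellar and 0.66 for the brain stem list. The 4 cerebellar genes (of 5 listed) summed to 459 to 915 TPM in control, 499 to 903 in stress and 613 to 927 in enriched libraries, and none was at 0. Of the 7 brain stem genes, Hoxa5 was at 0 in 2 libraries (stress replicate 3 and enriched replicate 3). Tph2, which makes serotonin, was highest in stress replicate 1, as C1ql2 was, with 56.3 CPM there and 9.65 CPM or less elsewhere. The part of regional content in the C1ql2 values was not tested.

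**Figure D3:**
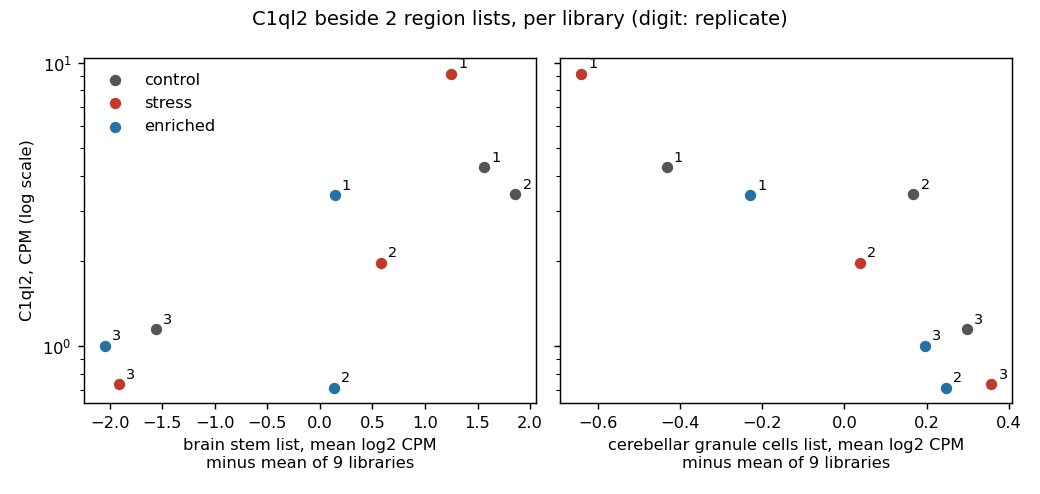
C1ql2 (CPM, log axis) against the mean of 7 brain stem genes in log2 CPM (left) and 4 cerebellar granule cell genes (right), each relative to the mean of the 9 libraries, 1 point per library numbered by replicate. C1ql2 is highest in stress replicate 1, which has the lowest cerebellar value (-0.64), and is at 0.713 to 1.15 CPM in the 4 libraries with the highest cerebellar values.

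The tested genes outside the list whose pattern was most like that of C1ql2 were Tmem130 (r = 0.98), C1ql4 (r = 0.97) and Epx (r = 0.96) over the 9 libraries. Here and for the other members, the 3 genes were picked for the highest r among the genes tested (14694 in all). Over 9 libraries such a pick gives a high r by selection alone, so these values are descriptions and no evidence of shared regulation. C1ql4, a relative in the same family of secreted C1q-domain proteins, had 49, 50 and 3 reads in control replicates 1 to 3, 100, 14 and 2 in stress, and 39, 5 and 3 in enriched. Both genes were thus higher in control replicates 1 and 2, stress replicate 1 and enriched replicate 1 than in any other library. The deposited counts of C1ql2 were whole numbers in all 9 libraries. C1ql1, another relative, was highest in the same 4 libraries, at 24.8 and 21.7 CPM in control replicates 1 and 2, 24.6 CPM in stress replicate 1 and 23.1 CPM in enriched replicate 1. Its other libraries lay at 7.51 to 17.4 CPM. C1ql3 was higher in replicate 3 than in replicate 1 of each group, with 44.5 and 67.9 CPM in control replicates 1 and 3, 63.5 and 80.7 CPM in stress replicates 1 and 3 and 53.97 and 98.9 CPM in enriched replicates 1 and 3.

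Dsp encodes desmoplakin, which ties desmosomes to intermediate filaments and is also made by epithelia and by arachnoid barrier cells (gene 109620, chromosome 13, 38151294 to 38198577). Its reads numbered 24, 29 and 35 in control, 18, 23 and 11 in stress, and 9, 25 and 17 in enriched replicates 1 to 3. As CPM, it was at 1.45, 1.75 and 2.12 in control, 1.09, 1.42 and 0.672 in stress, and 0.539, 1.49 and 1.07 in enriched. All 3 stress values lay below all 3 controls, by 1.42 against 1.45 CPM at the nearest, while enriched replicate 2 overlapped the controls. In TPM stress and control overlapped, with Dsp at 0.3 in stress replicate 2 and 0.26 in control replicate 1. On the log2 scale the fold change was -0.74 ± 0.40 (95% interval -1.63 to 0.15, adjusted p = 0.546) for stress and -0.78 ± 0.40 (-1.67 to 0.12, adjusted p = 0.271) for enriched against control by edgeR (SE). In this fit these were the smallest unadjusted p-values of the 8 members, at 0.0947 and 0.081. With the length trend removed the values were -0.93 and -1.07 (adjusted p = 0.585 and 0.398 by edgeR), both under an unadjusted threshold of 0.05. For enriched against control, Dsp was at -1.14 without enriched replicate 2 and at -0.48 without enriched replicate 1, and for stress at -0.50 without stress replicate 3. Its transcript XM_006516532.4 was estimated at 12.7, 24.08 and 30.07 counts in control, 0, 0 and 1.11 in stress, and 4.09, 21.39 and 9.08 in enriched replicates 1 to 3. The split between transcripts was not tested.

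Desmoplakin's other sources include border tissue. The 7 markers of leptomeninges and arachnoid barrier summed to 50.4 to 63.8 TPM in control, 49.9 to 63.8 in stress and 56.1 to 67.96 in enriched libraries, with none at 0 and 0 of 7 called. Dcn, at 33.9 TPM (mean of 9), dominated this sum. The mean log2 CPM of the list ran from 0.40 (control replicate 3) to -0.54 (enriched replicate 3) about its mean. By edgeR, 2 of 7 were under an unadjusted p of 0.05 for enriched against control (20.4% of all genes). Krt18 was at 6.82 to 9.23 CPM in control and 0.063 to 3.63 CPM elsewhere, while 4 of 7 fold changes lay above 0 for enriched and 2 for stress against control. Over the 9 libraries, Dsp had r = 0.62 (Spearman 0.80) with the leptomeninges list and r = 0.68 (Spearman 0.90) with the choroid plexus list, in which Folr1 was at 0 in 1 library. The choroid plexus list summed to 8371 to 11635 TPM in control, 1137 to 4983 in stress and 43.2 to 7085 in enriched libraries. The part of either tissue in the Dsp values was not tested. The genes most like Dsp were Gtpbp8, Sapcd1 and Col4a4, a basement membrane collagen (r = 0.97 each). Col4a4 was at 1.69, 1.81 and 2.06 CPM in control, 1.15, 1.48 and 0.916 in stress, and 0.539, 1.37 and 1.07 in enriched replicates.

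Lct encodes lactase, an enzyme of the intestinal brush border whose transcript also marks granule cells (gene 226413, chromosome 1, 128284756 to 128328318). Its reads numbered 28, 13 and 15 in control, 17, 12 and 23 in stress, and 9, 15 and 13 in enriched replicates 1 to 3. The groups overlapped, with the highest library in control and the lowest in enriched. edgeR gave a log2 fold change of -0.09 ± 0.39 for stress and -0.59 ± 0.41 for enriched against control (SE; adjusted p = 0.924 and 0.379 by edgeR). Without control replicate 1 the values were 0.32 and -0.185, and with the letter of the animal codes -0.67 and -0.175. Lct and Dsp, although both mark granule cells, had r = 0.13 over the 9 libraries, and Prox1 had r = -0.14 with C1ql2. With 9 to 28 reads of Lct and 9 to 35 of Dsp in a library, counting error alone can lower the r of that pair. For Dsp and Lct the spread within groups was 0.49 and 0.43 on the log2 scale, close to the median of genes at similar levels (0.43 and 0.47).

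Among the CA1 genes, Wfs1 encodes wolframin, a membrane protein of the endoplasmic reticulum (gene 22393, chromosome 5, 36966104 to 36988982). Replicates 1 to 3 were at 91.0, 144 and 112 CPM in control, 129, 122 and 122 CPM in stress, and 141, 112 and 128 CPM in enriched mice. Control replicates 1 and 2 were the lowest and the highest of all 9 libraries, so the other groups lay inside the control range. Its log2 fold change was 0.10 ± 0.16 (95% interval -0.24 to 0.45) for stress and 0.14 ± 0.16 (-0.21 to 0.49) for enriched against control (SE; adjusted p = 0.764 and 0.588 by edgeR). Without control replicate 2 the values were 0.29 and 0.33, and without control replicate 1 they were -0.04 and -0.02. With the letter of the animal codes as a covariate, which sets stress against control replicate 1 alone, the value for stress was 0.45. On log2(TPM + 0.5) the value for enriched was 0.34.

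Fibcd1 encodes a transmembrane receptor with a fibrinogen domain that binds acetylated sugars (gene 98970, chromosome 2, 31813290 to 31846964). It was at 12.2, 8.82 and 9.08 CPM in control, 14.3, 11.6 and 6.78 CPM in stress, and 18.1, 7.31 and 19.2 CPM in enriched replicates 1 to 3. Enriched replicates 1 and 3 lay above every other library, while enriched replicate 2 lay below all controls. The log2 fold change for enriched against control was 0.57 ± 0.36 (SE, 95% interval -0.25 to 1.38, adjusted p = 0.348 by edgeR), and without enriched replicate 1, 2 or 3 it was 0.39, 0.89 (adjusted p = 0.424) or 0.34. For stress against control it was 0.12 ± 0.37 (adjusted p = 0.892), and without stress replicate 1 it was -0.13. Its spread within groups, 0.57, was above the median of 0.21 for 1727 genes of similar level.

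Enriched replicates 1 and 3 were also the libraries with the least choroid plexus RNA and with transcripts of olfactory mucosa. The 4 mucosal markers summed to 76.8 and 66.1 TPM there and to 5.64 TPM in enriched replicate 2, against 0.47 to 1.14 TPM in control and 1.41 to 5.45 TPM in stress, with the keratin gene Krt5 at 0 in all 9. With the choroid plexus list Fibcd1 had r = -0.82 (Spearman -0.60), and -0.46 without the 2 most extreme libraries. Whether either tissue takes part in the Fibcd1 values was not tested. The genes most like Fibcd1 were Runx1 (r = 0.93), Hes5 (r = 0.92), a Notch target, and Golga7 (r = 0.92). In enriched replicates 1 and 3, Hes5 was at 12.04 and 12.9 CPM, while the other 7 libraries held 5.99 to 9.35 CPM.

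Spink8 encodes a secreted protease inhibitor of the Kazal type (gene 78709, chromosome 9, 109812203 to 109826628). Its reads numbered 6, 2 and 3 in control, 2, 5 and 27 in stress, and 3, 5 and 11 in enriched replicates 1 to 3. Stress replicate 3 stood far above the others of its group, with a 95% Poisson interval of 17.8 to 39.3 reads against 1.62 to 11.7 for stress replicate 2, and enriched replicate 3 came next. The gene failed the filter on low counts. In the fit without that filter (18193 genes) its log2 fold change was 1.61 ± 0.90 for stress and 0.78 ± 0.95 for enriched against control (SE; adjusted p = 0.617 and 0.648 by edgeR). Its value comes from 1 of 2 annotated coding transcripts, and the gene Gm51691 overlaps it.

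Spink8 and Fibcd1, both CA1 markers, did not move together (r = -0.23, Spearman -0.08), though with 2 to 27 reads of Spink8 in a library counting error can lower this r. The library highest for Spink8, stress replicate 3, was the lowest for Fibcd1. Genes most like Spink8 were Pak1 (r = 0.95), a kinase of the actin cytoskeleton, Lmo4 (r = 0.94), a LIM-domain regulator made in cortex, and Ism1 (r = 0.91). Lmo4 was at 205 and 167 CPM in stress replicate 3 and enriched replicate 3, and at 93.1 to 149 CPM in the other 7 libraries. In the same 2 libraries the brain stem list was lowest, at 6.58 and 8.01 TPM in sum, but control replicate 3, at 8.72 TPM, held only 3 reads of Spink8. The part of regional content in the Spink8 values was not tested.

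Pou3f1 encodes a POU-domain transcription factor (gene 18991, chromosome 4, 124657646 to 124660655). It varied least of the 9 genes, at 25.9, 20.5 and 19.3 CPM in control, 22.5, 20.7 and 23.6 CPM in stress, and 19.6, 20.2 and 19.4 CPM in enriched replicates 1 to 3. All 3 stress values lay above all 3 enriched values, with 20.7 against 20.2 CPM at the nearest. The log2 fold change of stress against enriched was 0.17 ± 0.13 (SE, 95% interval -0.11 to 0.46, adjusted p = 0.999 by edgeR). With the first letter of the animal codes in the model, this value was -0.20. Its spread within groups was 0.14, under the median of 0.19 for genes of similar level.

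Hs3st4 encodes an enzyme that adds sulfate to heparan sulfate chains (gene 628779, chromosome 7, 123982366 to 124398989). It was at 29.2, 19.5 and 24.0 CPM in control, 24.3, 19.1 and 22.9 CPM in stress, and 18.4, 21.9 and 20.3 CPM in enriched replicates 1 to 3. The groups overlapped. The log2 fold change was -0.13 ± 0.16 for stress and -0.26 ± 0.16 for enriched against control (SE; adjusted p = 0.714 and 0.335 by edgeR). For enriched against control it was -0.11 without control replicate 1, -0.40 without control replicate 2 (adjusted p = 0.433) and -0.07 on log2(TPM + 0.5). For stress it was 0.02 without control replicate 1 and -0.27 without control replicate 2. The transcripts NM_001252072.2 and XM_030242862.1 held nearly all of its count, at 31.1% to 47.8% and 51.8% to 68.3%. A lncRNA and a snoRNA gene lie within its span.

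**Figure D4:**
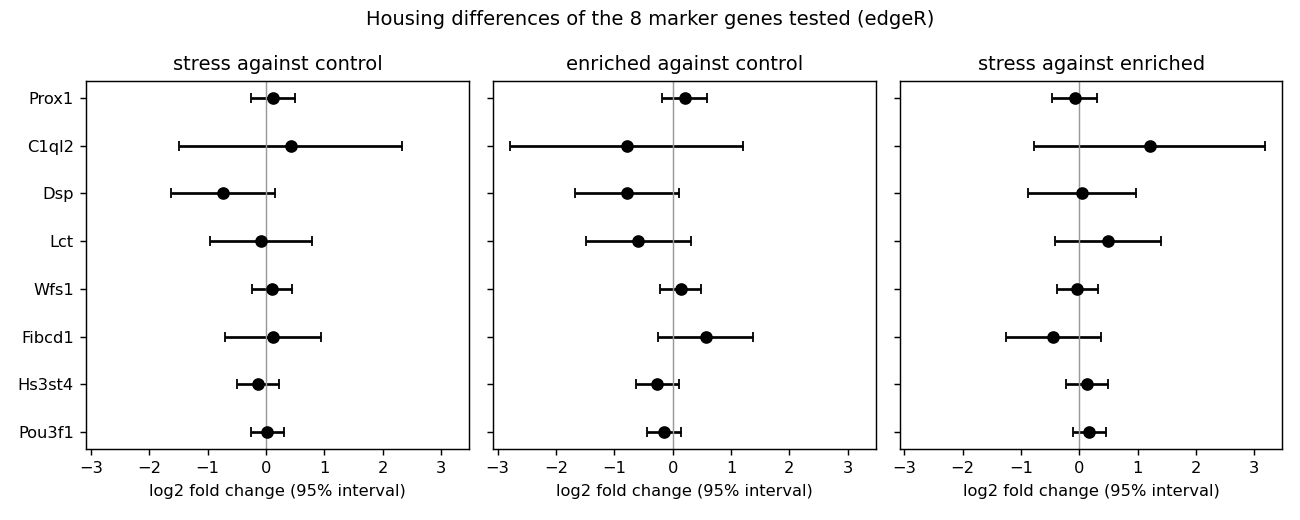
Log2 fold changes with 95% intervals (edgeR, 3 against 3 libraries, 1 fit of all 9) of the 8 marker genes tested, for the 3 comparisons of housing groups. Every interval includes 0, and the intervals of C1ql2 are the widest (-1.48 to 2.32 for stress against control).

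The markers did not vary as 1 block. Over the 36 pairs of members, Pearson's r of log2 CPM across the 9 libraries ran from -0.83 (Wfs1 with Hs3st4) to 0.89 (Lct with Hs3st4). Lct, Hs3st4 and Pou3f1 shared their highest library, control replicate 1, which was the lowest for Prox1 and Wfs1. Without control replicate 1 and the other most extreme library, r was 0.68 for Lct with Hs3st4, 0.45 for Lct with Pou3f1 and -0.47 for Wfs1 with Hs3st4. For Prox1 with Pou3f1 it went from -0.79 to 0.36, so that relation rests on those 2 libraries. The genes most like Prox1 were the astrocyte water channel Aqp4 (r = 0.98), Zfp507 and Lrrn1 (r = 0.97 each), and Aqp4 was also lowest in control replicate 1, at 122 CPM against 163 to 272 CPM in the other libraries. Those most like Wfs1 were Ptgs1 (r = 0.94), Ehd3 (r = 0.92) and Spats1 (r = 0.89), all highest in enriched replicate 1. Those most like Lct were Tmem14a (r = 0.96), Slc25a14 (r = 0.95) and Nsmce2 (r = 0.93). For Hs3st4 they were Aldh3b1 (r = 0.96), Cys1 and Decr2 (r = 0.95 each), and for Pou3f1 B4gat1 (r = 0.96), Eef1akmt4 (r = 0.95) and Trpt1 (r = 0.94).

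**Figure D5:**
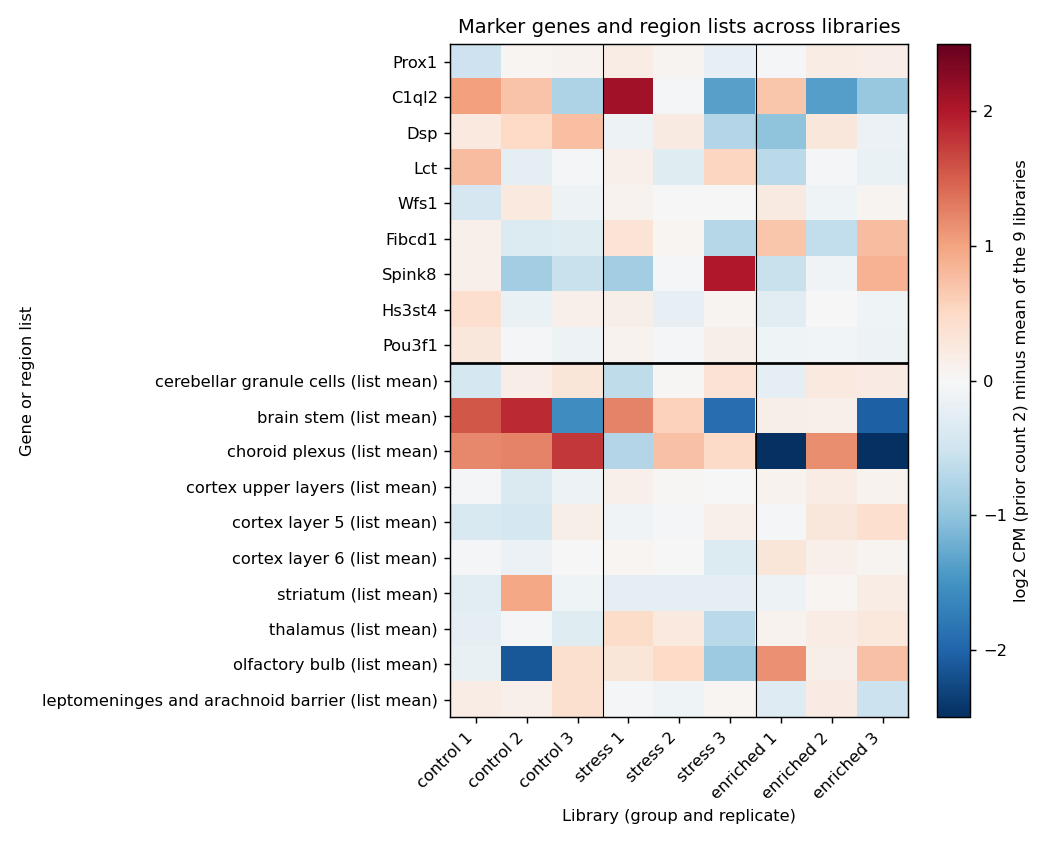
Log2 CPM (prior count 2) of the 9 marker genes and the mean log2 CPM of 10 region or border tissue lists in each library, relative to the mean of the 9 libraries; colours end at 2.5 in either direction, which the choroid plexus list passes in enriched replicates 1 and 3 (-2.65 and -3.21). C1ql2 and Spink8 vary most among the genes, and C1ql2 is high where the brain stem list is high in control replicates 1 and 2 and stress replicate 1. Enriched replicates 1 and 2 have nearly the same brain stem value (0.141 and 0.131) but 3.41 and 0.713 CPM of C1ql2. Stress replicate 2, at 0.579 for the brain stem list, has 1.97 CPM of C1ql2.

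Other genes of the hippocampal fields also passed no test. Of 8 further granule cell genes, all tested, 0 were called in any comparison by edgeR. At an unadjusted p under 0.05 there were 2 for stress against control (7.98% of all genes tested), 5 for enriched against control (20.4%) and 1 for stress against enriched (2.64%). The median log2 fold changes were 0.35, 0.51 and -0.12. The most abundant were the calcium buffer Calb1, which cerebellar Purkinje cells also make (405 TPM, mean of 9), Plk5 (48.8 TPM) and Stxbp6 (28.9 TPM). Of 5 further CA1 genes, led by Mpped1 (56.0 TPM), Ccn3 (47.9 TPM) and Nr3c2, the mineralocorticoid receptor (11.5 TPM), 0 were called, and the medians were 0.19, 0.26 and -0.13.

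Of 6 CA3 genes, 5 were tested and 0 called, with medians of -0.18, -0.29 and 0.10. They were led by Homer3, a postsynaptic scaffold also made by Purkinje cells (200 TPM), Bok (46.9 TPM) and Cpne4 (45.4 TPM), while Iyd was at 0.09 to 0.27 TPM. Of 5 CA2 genes, 4 had a row and were tested and 0 were called, with medians of 0.04, 0.11 and -0.06. They were led by Cacng5 (38.7 TPM), Amigo2 (27.4 TPM) and Rgs14, a signalling regulator of CA2 neurons (15.89 TPM). The level of the further granule cell list, relative to its mean over the 9 libraries on the log2 scale, was lowest in control replicates 2 and 1 (-0.47 and -0.33) and highest in enriched replicate 3 (0.32). For the 4 granule cell members it was highest in stress replicate 1 (0.57) and control replicate 1 (0.38), so the lists of the same cell type did not rank the libraries alike. Over all 18 lists of region and cell type markers, 95 of 101 genes were tested and 0 were called in any of the 3 comparisons.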

How the data were processed

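Libraries were made from poly(A) RNA by random priming, and the labels' protocols describe no strand marking. RSEM 1.2.12, Bowtie2 2.2.5, HISAT2 2.0.4 and the build GRCm38.p6 stand in the submitters' processing notes without roles. The authors deposited, per coding RefSeq transcript, an estimated count (56.5% not whole, to a tolerance of 0.001), a TPM and an FPKM, per the file headers; FPKM was not used. Transcripts not analysed here hold 3.93% to 4.33% of the TPM of a library. Annotated transcripts and listed genes without a row may be among them, so a missing row does not show absent expression.

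Counts of 65535 transcripts were summed to 18450 genes and rounded, and 18398 identifiers matched RefSeq symbols of GRCm38.p6. Chi-square per gene between libraries was 9.19 or more within groups and 7.41 or more between them, so none were duplicates. Animals carry separate codes, replicates were numbered in accession order, and the numbers pair no animals. filterByExpr of edgeR 4.0.16 (minimum count 10, total 15) kept 14694 genes, scaled by TMM. All 9 libraries entered 1 robust quasi-likelihood fit (6 residual degrees of freedom, R 4.3.3), Benjamini-Hochberg over all genes, threshold 0.05. The script was tested on simulated data. Alternatives used DESeq2 1.42.0 and limma 3.58.1. Named genes were all members, up to 3 of each hippocampal field list by mean TPM, and the 3 genes with the highest r to each member; relatives of C1ql2 and genes given beside a member were picked with their values known. The members and lists were chosen with earlier results of these data known.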

Additional observations from a re-analysis of the deposited data

How the results depend on the processing

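Of 432 values of the 8 tested members under 18 alternatives, 394 kept their sign, 38 changed it and 0 of the 426 with an adjusted p passed 0.05 (DESeq2 gave none for 6 values of enriched against control), while 9 were under an unadjusted p of 0.05. The smallest adjusted p was that of Prox1 in stress against control with the first letter of the animal codes as a covariate. That contrast rests on 1 control library. The cause of the changes was not tested. For stress against control, the log2 fold changes that turned were Prox1 (-0.044) and Fibcd1 (-0.015) with the length trend removed, and C1ql2 by limma-voom (-0.11). With the letter they were C1ql2 (-0.11), Fibcd1 (-0.16) and Pou3f1 (-0.22). On log2(TPM + 0.5) and log2(TPM + 0.1), Lct was at 0.026 and 0.057 and Hs3st4 at 0.025 and 0.026. Leaving out each library in turn gave -0.051 to 0.22 for Prox1, -1.13 to 0.91 for C1ql2, -0.35 to 0.32 for Lct, -0.044 to 0.29 for Wfs1, -0.13 to 0.37 for Fibcd1, -0.27 to 0.023 for Hs3st4 and -0.060 to 0.16 for Pou3f1. For enriched against control, Prox1 was at -0.070 with the length trend removed, Wfs1 at -0.0084 with the letter and at -0.018 to 0.33 with 1 library left out, and Pou3f1 at 0.046 and 0.048 on the log2 TPM scales. For stress against enriched, Prox1 was at 0.026 with the length trend removed and Dsp at -0.057 and -0.10 on the TPM scales. The letter gave 0.50 for Prox1, -0.49 for Lct, 0.46 for Wfs1, -0.30 for Hs3st4 and -0.20 for Pou3f1. With 1 library left out, Prox1 was at -0.17 to 0.022, C1ql2 at -0.34 to 2.21, Dsp at -0.26 to 0.40 and Wfs1 at -0.11 to 0.057. The letter is C for stress and control replicate 1 and D for enriched and control replicates 2 and 3, so only the 3 controls separate it from the difference of stress and enriched. With the letter in the model, stress against control compares the stress libraries with control replicate 1 alone. Enriched against control then rests on control replicates 2 and 3. Over the whole table, where 0 genes were called in each comparison, DESeq2 called 7 for stress against control and 5 for enriched against control. The letter gave 3 for stress against control and 1 for stress against enriched. Leaving out 1 library gave 0 for stress against control, 0 to 1586 for enriched against control (1586 without control replicate 3 and 33 without enriched replicate 2) and 0 to 2 for stress against enriched (2 without enriched replicate 2). None of the 8 tested members was among them, and Spink8 was not looked up in those fits. No paired analysis was possible because the labels give no replicate numbers that groups share. Counts of 2 to 35 reads limit what can be seen for Dsp, Lct and Spink8.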
